A study of Sus scrofa with 6 samples.

Results

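The enzymes that attach ubiquitin to proteins and those that remove it were followed at the RNA level in the longissimus dorsi, the large back muscle, of adipocyte-specific UCP1 knock-in (KI) and wild-type (WT) pigs. Genes were taken by symbol: names that begin with UBE2 (E2 conjugating enzymes), with USP and a digit (ubiquitin-specific proteases), or with UCHL and a digit (ubiquitin C-terminal hydrolases). Of 79 genes that matched, 75 had at least 10 counts in at least 3 of the 6 pigs and were kept, namely 29 UBE2, 43 USP and 3 UCHL genes, out of 30476 genes in the table. All 75 passed the separate filter on low counts that left 13402 genes for testing, so no member was lost there.

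Each group held 3 pigs, all 6 months old, with 1 muscle RNA library per pig. The KI pigs carry UCP1, the uncoupling protein of brown fat mitochondria, under control meant to limit it to adipocytes, so the muscle fibres themselves were not the target of the insertion. WT pigs lack the insertion. The breed and sex of the pigs, and whether the groups were littermates, are not given in the sources used here. *UCP1* itself has no identifier that could be matched in the table. The study detected no *UCP1* mRNA in the muscle of either group, so that gene could not have checked the genotype labels here.

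Ubiquitin is a small protein that is passed along a cascade. An E1 enzyme activates it, an E2 enzyme carries it on a cysteine, and an E3 ligase helps move it to a lysine of the target. Chains linked through lysine 48 send proteins to the proteasome, while lysine 63 chains mostly serve signalling, trafficking and DNA repair. Deubiquitinases cut ubiquitin off again, recycle it and edit chains. In skeletal muscle this system carries much of the turnover of myofibrillar protein.

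Library totals lay between 30220951 and 35066624 counts, and 3 counts corresponded to 0.0795 to 0.1096 CPM (counts scaled to a library of 1000000). WT replicate 2 stood apart in composition: its 20 most abundant genes took 56.5% of its counts, against 39.0% to 44.8% in the other pigs, and its TMM scaling factor (edgeR's correction for such differences) was 0.781, against 0.918 to 1.18. Every level below is a TMM-scaled CPM, and such levels are compared between pigs. They are not corrected for transcript length, so the CPM summed over a list weights long transcripts more and no order of transcript abundance is read from it. Muscle fibre genes were abundant in every pig, with *ACTA1*, skeletal alpha-actin, between 30309 and 55971 CPM, and *CKM*, muscle creatine kinase, between 5748 and 11991 CPM.

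The first question was whether genotype in fat shifted the muscle's conjugating and deubiquitinating enzymes as a family. A gene is called here where edgeR's quasi-likelihood test gave an unadjusted p under 0.05 and the log2 fold change (KI against WT) exceeded 0.5 in size, the limits the study used. Of the 75 genes, 2 were called higher in KI muscle (2.67%) and 4 lower (5.33%). Over all 13402 genes tested, the same limits called 3.84% higher and 4.34% lower, so the share called among these enzymes lay near the background. With library size as the only scaling, which raised the median of all genes by 0.25 on the log2 scale, 4 were called higher (*UCHL1*, *USP39*, *UBE2A* and *USP14*) and 2 lower (*USP43* and *USP6NL*), while 6.93% of all genes were then called higher and 1.46% lower. The median log2 fold change of the 75 genes was -0.0006, beside -0.0153 over all genes tested, with 37 genes above zero and 38 below. The median size of the change, ignoring its sign, was 0.18 on the log2 scale, against 0.33 over all genes, and 62 of the 75 genes (82.7%) changed by less than 0.5, against 67.5% of all genes. The enzymes were also better counted, with a median level over genes of 25.3 CPM against 8.76 CPM for all genes tested, and the part of that in the smaller changes was not tested. Their summed level was 2739, 2853 and 2939 CPM in KI replicates 1, 2 and 3, and 2353, 2731 and 3294 CPM in the WT replicates. The WT pigs thus spread on both sides of the KI pigs.

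No enzyme reached an adjusted p (Benjamini-Hochberg, over all genes tested) under 0.05 in edgeR, where the smallest value among the 75 was 0.162. At an unadjusted p under 0.05 the count was 6 (8.0%), beside 8.21% of all genes tested. DESeq2, fitted to the same genes, called the same 6 genes, which is 8.0% of the 75 beside 9.77% of all genes, and 2 of them, *UCHL1* and *USP43*, had an adjusted p under 0.05 (2.67%, beside 0.95% of the 13374 genes given one). Whether the 3 pigs of each group were independent litters is not known, so the p-values measure only the spread between these pigs.

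**Figure D1:**
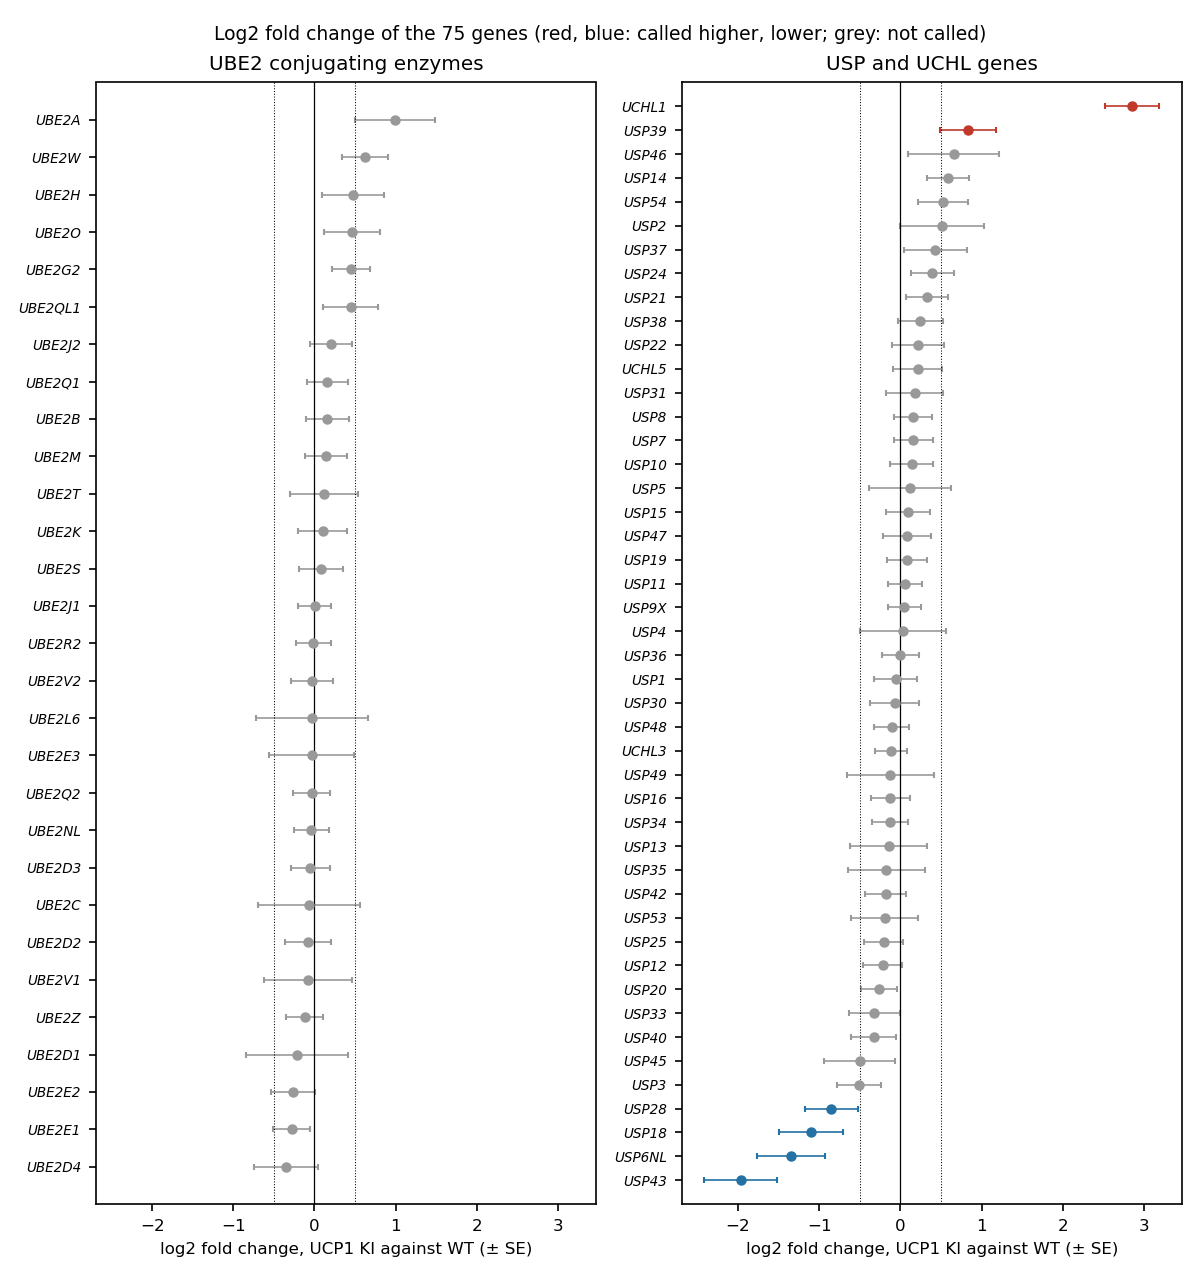
Log2 fold change (KI against WT, horizontal axis) with its standard error for the 29 UBE2 genes (left) and the 46 USP and UCHL genes (right), sorted by value, with dotted lines at the limits of 0.5 in either direction. Red and blue mark the 2 genes called higher and the 4 called lower, grey the genes not called; most grey points lie between the dotted lines and *UCHL1* stands far to the right.

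The most marked difference in the family was in *UCHL1*, a deubiquitinase of neurons and endocrine cells that hydrolyses small ubiquitin adducts and has been described in muscle fibres as well. The gene, ENSSSCG00000022945, lies on pig chromosome 8 at 32353766 to 32367288 (Sscrofa11.1). It was counted 827, 1619 and 1431 times in KI replicates 1, 2 and 3 and 248, 109 and 130 times in the WT replicates. In TMM-scaled units that is 26.7, 45.4 and 37.9 CPM against 6.84, 3.98 and 4.34 CPM. The lowest KI pig lay far above the highest WT pig, and the groups did not overlap. The means were 36.7 ± 9.39 CPM (SD, n = 3) in KI and 5.05 ± 1.56 CPM (SD, n = 3) in WT, a 7.26-fold ratio. The fitted log2 fold change was 2.86 ± 0.33 (SE), with an edgeR adjusted p of 0.162 and a DESeq2 adjusted p of 1.52e-11. By its edgeR p it ranked 2 among all 13402 genes tested, and by the size of its increase 29. Leaving out any 1 pig kept the log2 fold change between 2.66 and 3.13 and past both limits.

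In the other UCH enzymes the KI and WT pigs overlapped. *UCHL3*, which also processes the ubiquitin-like protein NEDD8, gave 45.5, 43.4 and 48.8 CPM in KI and 46.9, 49.6 and 52.9 CPM in WT, a log2 fold change of -0.12 ± 0.20 (SE). These 6 values lay within 1.22-fold of each other. *UCHL5*, the hydrolase docked on the proteasome's regulatory particle, gave 64.6, 68.5 and 86.0 CPM in KI and 46.1, 55.0 and 88.0 CPM in WT, with groups that overlapped and a log2 fold change of 0.21 ± 0.30 (SE).

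The genes beside *UCHL1* on the chromosome were looked up in the RefSeq table of the same assembly. The nearest protein-coding gene on one side, *APBB2*, averaged 53.1 CPM in KI and 81.3 CPM in WT, a log2 fold change of -0.61 with an unadjusted edgeR p of 0.228. On the other side *LIMCH1* averaged 28.4 and 18.8 CPM, a log2 fold change of 0.60 with an unadjusted edgeR p of 0.406. Neither neighbour was called. Of the 22 genes that could be tested among the 3 protein-coding genes on each side of the 6 called enzymes, 2 were called. Over all genes tested 8.19% were called, so this count lay near the background. Both called neighbours lay beside *USP39*, described further on. *GNLY*, a granule protein of cytotoxic lymphocytes, gave 17.9, 52.8 and 2.46 CPM in KI and 1.79, 6.72 and 1.94 CPM in WT (log2 fold change 2.81, unadjusted edgeR p 0.0263). *ATOH8*, a transcription factor gene, gave 12.7, 15.4 and 12.1 CPM in KI and 8.74, 9.20 and 9.74 CPM in WT (0.54, unadjusted edgeR p 0.0473).

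Because *UCHL1* marks neurons, genes of nerve and of its sheath were read in the same pigs. *SNAP25* and *CHAT*, of the synapse and of motor neurons, had no counts in any pig, and *STMN2*, *PRPH*, *ELAVL4* and *SYP* stayed at or under 0.827 CPM. *TUBB3*, a neuronal tubulin, was at 9.48 CPM in KI replicate 3 and 4.36 CPM in WT replicate 1, and at or under 0.140 CPM in the other pigs. The neuron and axon list summed to 27.7 to 47.5 CPM in KI and 27.1 to 34.1 CPM in WT, a sum to which *GAP43* gave the most counts, with 26.7, 32.4 and 37.6 CPM in KI and 21.4, 32.5 and 28.2 CPM in WT. None of the 2 neuronal genes that could be tested and none of 8 Schwann cell genes was called. The Schwann cell genes summed to 228 to 264 CPM in KI and 160 to 352 CPM in WT, so the ranges of this sheath list overlapped. *ERBB3* alone made up 82.5% to 92.6% of that sum, and the other 7 genes summed to 28.0 to 45.9 CPM in KI and 26.0 to 59.2 CPM in WT, again with overlap. The median log2 fold change of the 8 genes was -0.26, with 6 negative, and 1 was called lower when WT replicate 1 was left out. In whole muscle, a change in the number of cells of a type and a change in RNA per cell cannot be told apart, and which cells carried the *UCHL1* RNA was not tested.

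**Figure D2:**
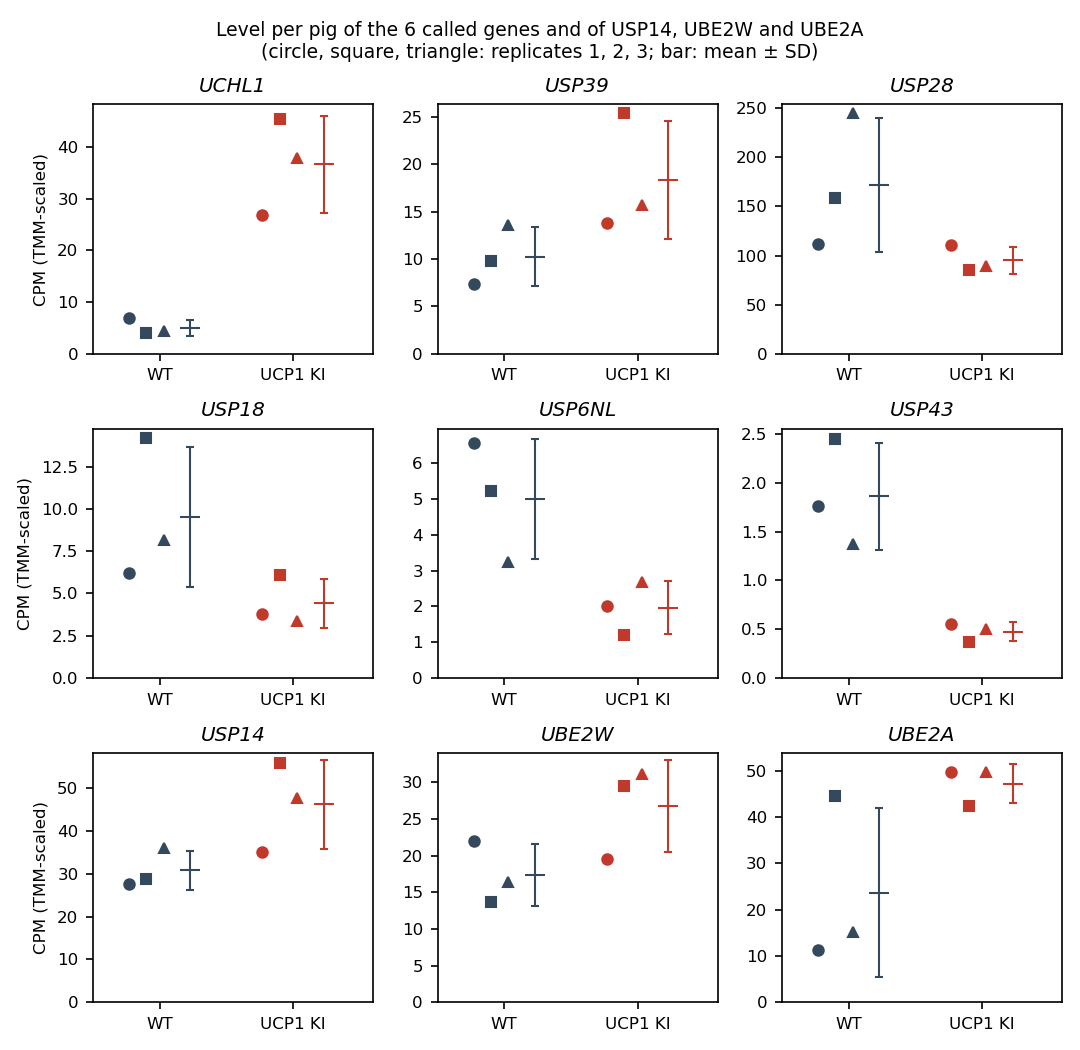
Level per pig (TMM-scaled CPM, each axis from zero) of the 6 called genes and of *USP14*, *UBE2W* and *UBE2A*, with WT in dark blue, UCP1 KI in red, symbols for replicates 1 to 3 and mean ± SD beside them. *UCHL1* lies between 26.7 and 45.4 CPM in KI against 3.98 to 6.84 CPM in WT, whereas *UBE2A* is low in WT replicates 1 and 3 only.

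The other gene called higher was *USP39*, a spliceosome protein that has the USP fold but is not known as an active protease. It gave 13.8, 25.4 and 15.7 CPM in KI and 7.36, 9.79 and 13.6 CPM in WT, with a log2 fold change of 0.84 ± 0.34 (SE) and an edgeR adjusted p of 0.603. The groups did not overlap, yet the lowest KI pig and the highest WT pig were almost level. The call rested on single pigs: without KI replicate 2 the log2 fold change was 0.52, and it was also not called without WT replicate 1 (0.64) or WT replicate 2 (0.80).

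Among the genes called lower, *USP43*, a little-studied protease, had few reads, with 13 to 19 counts per KI pig and 41 to 67 per WT pig. It gave 0.550, 0.365 and 0.503 CPM in KI against 1.76, 2.45 and 1.37 CPM in WT. All 3 KI pigs lay under all 3 WT pigs by a wide margin. The log2 fold change was -1.97 ± 0.45 (SE), with an adjusted p of 0.481 in edgeR and 0.0229 in DESeq2, and it stayed between -2.14 and -1.72 with any 1 pig left out, past both limits each time. The gene lies on chromosome 12 at 54584386 to 54643921, where the gene beside it that muscle expresses, *DHRS7C*, averaged 156 CPM in KI and 242 CPM in WT and was not called (log2 fold change -0.63).

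*USP6NL* is in the set only through its letters. Its product is a GTPase-activating protein for RAB5, which acts in endocytosis, and no protease. It gave 2.01, 1.21 and 2.68 CPM in KI and 6.56, 5.22 and 3.24 CPM in WT. The KI pigs were again all lower, with a log2 fold change of -1.35 ± 0.42 (SE) and an edgeR adjusted p of 0.583, and the call held without any 1 pig (-1.64 to -1.11). Without this gene, 3 of the 4 genes called lower encode proteases.

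*USP28*, a nuclear protease that stabilises MYC and takes part in the DNA damage response, gave 111, 85.2 and 89.3 CPM in KI and 112, 158 and 246 CPM in WT. KI replicate 1 and WT replicate 1 differed by under 1 CPM, so the groups were only just apart. The log2 fold change was -0.85 ± 0.33 (SE), with an edgeR adjusted p of 0.589. Leaving out WT replicate 3, the highest pig, moved it to -0.50, and it was also not called without KI replicate 2 (-0.78), KI replicate 3 (-0.80) or WT replicate 2 (-0.91).

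*USP18*, also called lower, removes ISG15, a ubiquitin-like protein induced by interferon, and damps signalling from the interferon receptor. It gave 3.82, 6.09 and 3.39 CPM in KI and 6.23, 14.2 and 8.14 CPM in WT, a log2 fold change of -1.10 ± 0.39 (SE) with an edgeR adjusted p of 0.583. KI replicate 2 and WT replicate 1 were almost level. Without WT replicate 2 the log2 fold change was -0.70 and the gene was not called, as was also so without KI replicate 1 (-1.0) or KI replicate 3 (-0.94).

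**Figure D3:**
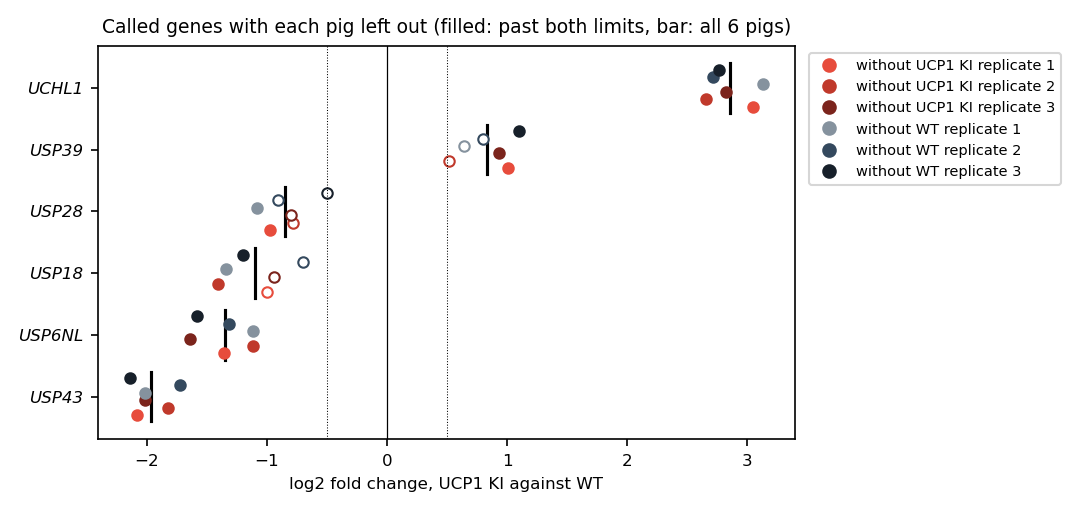
Log2 fold change (horizontal axis) of the 6 called genes with each pig left out in turn (points) and with all 6 pigs (black bars); filled points passed both limits, open points did not, and the dotted lines mark 0.5 in either direction. *UCHL1*, *USP43* and *USP6NL* are filled throughout, while *USP39*, *USP18* and *USP28* each have open points.

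The remaining genes of the ISG15 cycle were set beside *USP18*. *UBE2L6*, the E2 for ISG15, gave 24.0, 51.0 and 8.58 CPM in KI and 15.4, 52.9 and 17.3 CPM in WT, a log2 fold change of -0.03 ± 0.69 (SE). Its 6 pigs ran over a 6.17-fold range, with group means of 27.9 CPM in KI and 28.5 CPM in WT. *ISG15* itself gave 18.2, 34.8 and 7.10 CPM in KI and 13.4, 90.5 and 24.8 CPM in WT. *UBA7*, its E1, gave 7.05, 11.11 and 3.44 CPM in KI and 6.26, 30.6 and 6.07 CPM in WT. *HERC5*, its ligase, gave 2.85, 3.28 and 2.41 CPM in KI and 2.37, 7.74 and 2.60 CPM in WT. All 5 genes had their highest WT value in replicate 2 and their highest KI value in replicate 2. WT replicate 2 is also the pig that stands apart in composition, and the part of that in these values was not tested. Of 11 interferon-stimulated genes tested, none was called and 10 had a negative log2 fold change, with a median of -0.72. Single pigs decided this. Without KI replicate 2, 7 of the 11 were called lower, beside 2.82% of all genes, with a median of -1.53. Without WT replicate 2 none was called, beside 2.79% of all genes called lower, and the median was -0.21. With all pigs they summed to 80.7 to 278 CPM in KI and 172 to 424 CPM in WT.

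**Figure D4:**
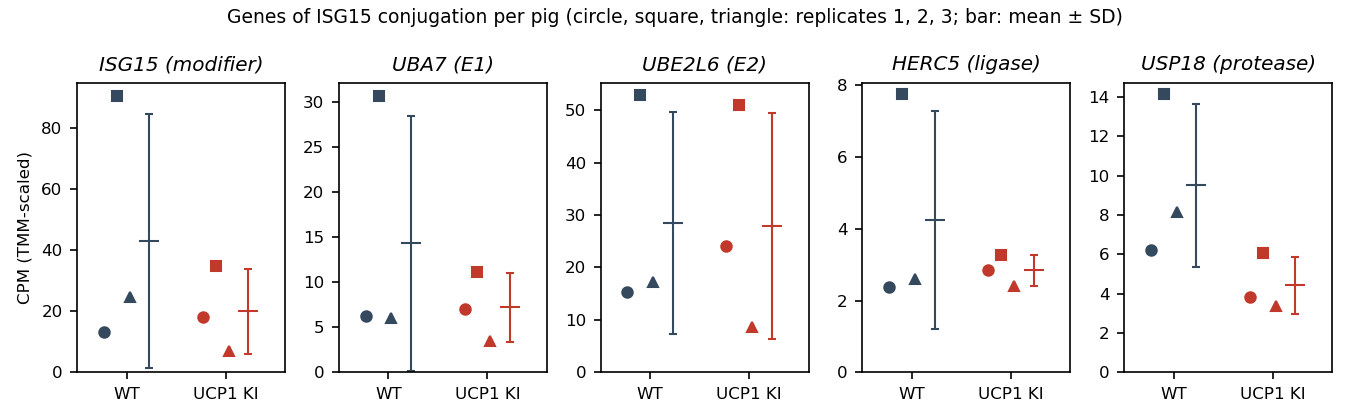
Level per pig (TMM-scaled CPM, each axis from zero) of *ISG15* and of the genes for its E1, E2, ligase and protease, with WT in dark blue, UCP1 KI in red, symbols for replicates 1 to 3 and mean ± SD beside them. The square, replicate 2, is the highest point of its group in every panel, at 90.5 CPM for *ISG15* in WT.

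None of the 29 E2 genes was called, and their log2 fold changes ran from -0.35 to 0.996 with a median of -0.01. *UBE2A*, one of the RAD6 pair that marks histone H2B and PCNA, had the largest positive value. It gave 49.7, 42.4 and 49.7 CPM in KI and 11.3, 44.7 and 15.2 CPM in WT, so the KI pigs were tight and WT replicate 2 sat among them. The log2 fold change was 0.996 ± 0.49 (SE) with an unadjusted edgeR p of 0.0804, and it was 1.83 and called without WT replicate 2. Scaling by library size alone gave 1.35 and also called it. Its close paralogue *UBE2B*, known in muscle for its response to atrophy signals, gave 148, 157 and 211 CPM in KI and 135, 136 and 192 CPM in WT, a log2 fold change of 0.16 ± 0.27 (SE). Reads shared by *UBE2A* and *UBE2B*, if any, could have been split between them. The handling of such reads is not given in the sources used here, and the pig sequences of the genes were not compared.

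The UBE2D and UBE2E enzymes, which serve many E3 ligases, had negative log2 fold changes in 7 of 7 genes, with a median of -0.21 and none called. With library size as the only scaling, 4 of the 7 turned positive. Leaving out WT replicate 3 under the TMM scaling also turned 4 of the 7 positive, and leaving out KI replicate 3 turned 2, so the common sign depended on the scaling and on single pigs. *UBE2D3* gave 229, 258 and 189 CPM in KI and 222, 225 and 253 CPM in WT. *UBE2D2* gave 82.3, 70.8 and 80.9 CPM in KI and 54.7, 84.4 and 108 CPM in WT. *UBE2D1* was the uneven member, at 183, 167 and 39.1 CPM in KI and 63.4, 217 and 170 CPM in WT: KI replicate 3 and WT replicate 1 were low and the other 4 pigs were high. *UBE2E1* gave 37.0, 36.2 and 47.7 CPM in KI and 43.1, 48.7 and 55.1 CPM in WT, a log2 fold change of -0.28 ± 0.23 (SE) with groups that overlapped. These paralogues have similar coding sequences, with the same open point on shared reads.

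Among the E2 enzymes of the endoplasmic reticulum and of lysine 48 chains, *UBE2G2*, a partner of ligases that clear misfolded proteins, gave 9.18, 9.79 and 11.8 CPM in KI and 7.17, 7.27 and 8.08 CPM in WT. It was the 1 E2 gene in which every KI pig exceeded every WT pig, with a log2 fold change of 0.45 ± 0.24 (SE) and an unadjusted edgeR p of 0.0928. *UBE2J1*, anchored in the same membrane, was the steadiest of all 75 genes, from 22.9 to 25.3 CPM over the 6 pigs, with a log2 fold change of 0.0022 ± 0.20 (SE). *UBE2W*, which adds ubiquitin to the amino terminus of proteins, gave 19.6, 29.5 and 31.1 CPM in KI and 22.0, 13.7 and 16.5 CPM in WT. Its groups overlapped through KI replicate 1, and it was called without that pig (0.81) or without WT replicate 1 (0.82), beside 0.62 ± 0.29 (SE) with all pigs. *UBE2M*, the E2 for NEDD8, gave 86.9, 81.5 and 91.9 CPM in KI and 56.1, 87.1 and 92.2 CPM in WT, a log2 fold change of 0.15 ± 0.26 (SE). *UBE2H*, *UBE2O* and *UBE2QL1* had values of 0.48, 0.46 and 0.45 on the log2 scale, and in all 3 the KI and WT pigs overlapped. Their SEs were 0.38, 0.34 and 0.34, and with 1 pig left out the values ran from 0.19 to 0.77, from 0.11 to 0.74 and from 0.17 to 0.68. *UBE2N* and *UBE2G1* were not found by symbol and are not analysed under those names. *UBE2NL*, counted among the 29 E2 genes, gave 30.1, 31.7 and 29.0 CPM in KI and 27.2, 29.2 and 36.9 CPM in WT. Its log2 fold change was -0.04 ± 0.22 (SE). Whether this identifier stands for pig *UBE2N* was not checked.

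Of the USP enzymes that work at the proteasome or on free chains, *USP14* trims ubiquitin from proteins held at the proteasome. It gave 35.1, 55.8 and 47.6 CPM in KI and 27.6, 28.7 and 36.0 CPM in WT, with KI replicate 1 just under WT replicate 3. The log2 fold change was 0.59 ± 0.25 (SE) with an unadjusted edgeR p of 0.0517, and it was called without KI replicate 1 (0.75) or WT replicate 3 (0.72). *USP5*, which takes apart unanchored chains, gave 22.1, 29.6 and 57.8 CPM in KI and 15.2, 35.2 and 50.4 CPM in WT. *USP13*, its paralogue, gave 129, 149 and 81.1 CPM in KI and 223, 60.7 and 113 CPM in WT. Neither gene differed between groups beyond that spread, with log2 fold changes of 0.12 ± 0.50 and -0.14 ± 0.47 (SE) that each changed sign with single pigs left out.

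Other USP genes with roles in muscle overlapped between groups. *USP19*, a protease with a form at the endoplasmic reticulum that rises in wasting muscle, gave 52.3, 39.3 and 56.9 CPM in KI and 39.3, 44.8 and 55.8 CPM in WT, a log2 fold change of 0.08 ± 0.25 (SE). *USP25*, which has a muscle isoform, gave 77.3, 79.1 and 79.2 CPM in KI and 74.2, 83.3 and 114 CPM in WT, a log2 fold change of -0.20 ± 0.24 (SE). *USP2*, known as an output gene of the circadian clock, gave 105, 98.3 and 121 CPM in KI and 22.4, 96.3 and 109 CPM in WT. Only WT replicate 1 was low, and the log2 fold change of 0.51 ± 0.52 (SE) fell to 0.07 without it. The hour of sampling is not given in the sources used here. *USP53*, a USP-fold protein of cell junctions, gave 11.7, 9.51 and 27.9 CPM in KI and 18.7, 19.7 and 17.8 CPM in WT, and was called lower (-0.82) only when KI replicate 3 was left out. *USP54*, its relative, gave 17.3, 16.5 and 30.4 CPM in KI and 13.5, 13.2 and 17.8 CPM in WT, a log2 fold change of 0.53 ± 0.31 (SE) that ran from 0.19 to 0.68 with 1 pig left out. *USP24*, a large protease, and *USP21*, a protease of histone H2A, had values of 0.39 ± 0.26 and 0.33 ± 0.26 (SE) on the log2 scale. *USP54*, *USP24* and *USP21* were not called in any fit with 1 pig left out.

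Across the 75 genes, 3 had every KI pig above every WT pig (*UCHL1*, *USP39* and *UBE2G2*), which is 4.0% beside 7.59% of all genes tested. In 6 genes every KI pig was below every WT pig, which is 8.0% beside 7.69%. These were the 4 called genes with *USP3*, a histone H2A protease (log2 fold change -0.51 ± 0.27), and *USP20*, a protease of membrane receptors (-0.27 ± 0.22). *USP20* gave 8.34, 7.26 and 8.37 CPM in KI and 9.90, 9.64 and 9.31 CPM in WT, a small gap with an unadjusted edgeR p of 0.269. With library size as the only scaling its log2 fold change was -0.02. The highest pig exceeded the lowest by 3-fold or more in 20 of the 75 genes and by under 1.5-fold in another 20. Of the least counted genes that the count rule kept, *USP46*, which works with WDR proteins, had 8 to 33 counts per pig and a log2 fold change of 0.66 ± 0.56 (SE), or 0.37 to 1.11 with 1 pig left out. Just outside the rule lay *USP27X* (4 to 16 counts), *USP44* (0 to 15), *USP50* (0 to 8) and *USP51* (0 to 4).

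The rest of the ubiquitin cycle was read from fixed lists with the same fit, and in the lists of this paragraph at most 1 gene was called when 1 pig was left out. None of 8 E1 enzymes was called (median log2 fold change 0.20), nor any of 9 genes for ubiquitin and its relatives (-0.05), 5 genes with the E2 fold and another name (-0.12), 14 OTU deubiquitinases (-0.02), or 4 genes with a USP or UCH fold and another name (-0.01). *UBB*, a polyubiquitin gene, gave 1935, 1468 and 1339 CPM in KI and 1002, 1506 and 1869 CPM in WT. Its KI and WT pigs overlapped.

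The 16 deubiquitinases of the JAMM, Josephin and MINDY families held 1 gene called in each direction, beside 3.84% of all genes called higher and 4.34% lower. With 1 pig left out, 0 to 2 of the 16 were called higher and 1 lower. In those fits 2.1% to 5.4% of all genes were called higher and 2.8% to 5.7% lower. *STAMBP*, a lysine 63 protease of endosomes, gave 3.82, 13.2 and 5.51 CPM in KI and 3.17, 3.10 and 2.14 CPM in WT, a log2 fold change of 1.42 ± 0.49 (SE) with an edgeR adjusted p of 0.583. KI replicate 2 carried much of it, since the value was 0.72 and not called without that pig, and it was also not called without WT replicate 3. *JOSD2*, a Josephin protease, gave 147, 69.4 and 124 CPM in KI and 700, 239 and 194 CPM in WT, a log2 fold change of -1.73 ± 0.55 (SE) with an edgeR adjusted p of 0.583. It was called with any 1 pig left out, and without WT replicate 1, the pig at 700 CPM, it was -0.93.

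The constitutive subunits of the proteasome itself were read in the same way. Of 32 constitutive subunits tested, 13 were called higher, beside 3.84% of all genes, and none lower, with a median log2 fold change of 0.62. That count was between 1 and 16 with 1 pig left out, in fits that called 2.1% to 5.4% of all genes higher. It was 3 without KI replicate 2, 1 without KI replicate 3, 2 without WT replicate 1 and 1 without WT replicate 2. The median stayed between 0.45 and 0.78. *ADRM1*, the ubiquitin receptor that binds UCHL5, gave 135, 183 and 214 CPM in KI and 85.1, 107 and 123 CPM in WT. It had a log2 fold change of 0.76 ± 0.27 (SE) and an edgeR adjusted p of 0.583, and it was not called without KI replicate 2, KI replicate 3, WT replicate 1 or WT replicate 2. *PSMD14*, the JAMM protease of the lid, gave 46.6, 74.4 and 91.5 CPM in KI and 29.6, 42.9 and 53.5 CPM in WT (0.75 ± 0.33, unadjusted edgeR p 0.0554). The 3 deubiquitinases of the particle thus had log2 fold changes of 0.75 (*PSMD14*), 0.59 (*USP14*) and 0.21 (*UCHL5*), none of them called.

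**Figure D5:**
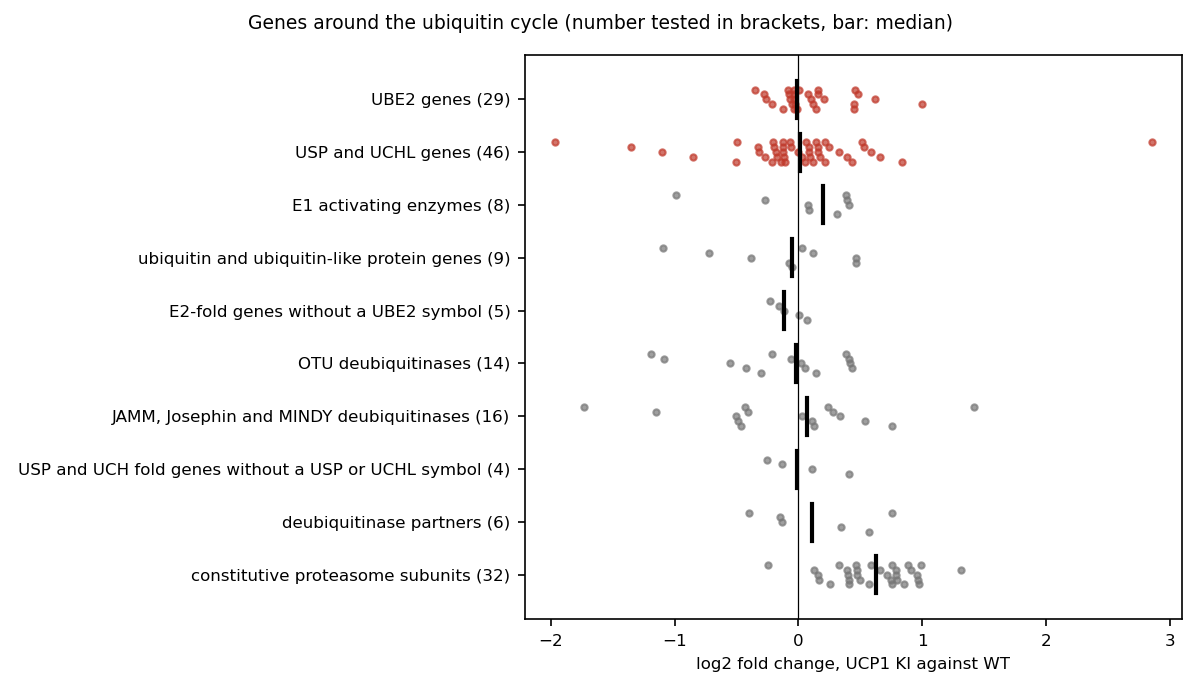
Log2 fold change (KI against WT, horizontal axis) of each gene tested in the 2 enzyme families (red) and in 8 lists around the ubiquitin cycle (grey), with the number tested in brackets and a black bar at the median. The medians of the UBE2 genes (-0.01) and of the USP and UCHL genes (0.02) sit at zero and that of the proteasome subunits at 0.62.

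Markers of other cells differed between some of these pigs. Fibroblast genes summed to 242 to 445 CPM in KI and 751 to 1202 CPM in WT without overlap. Of these, 4 of 7 were called lower, beside 4.34% of all genes, among them *COL1A1*, a collagen chain (log2 fold change -1.86). *COL3A1*, another collagen chain, gave 178, 49.3 and 188 CPM in KI and 349, 552 and 334 CPM in WT. *DCN*, which codes for no collagen, overlapped between groups and was not called (-0.39), while *LUM*, also no collagen, was called (-0.57). The count of called fibroblast genes was 2 without WT replicate 2, and 3 to 5 without any other 1 pig. In those fits 2.8% to 5.7% of all genes were called lower. *COL1A1* and *COL1A2* stayed called throughout, *COL3A1* was lost without WT replicate 2, and *LUM* was called in 1 of 6 left-out fits. 2 of 7 leukocyte genes tested, *CD3E* and *CD2* of T cells, were called higher, beside 3.84% of all genes. All 7 were positive, beside 48.7% of all genes, and their median log2 fold change was 0.79. That median was 0.03 with none called without KI replicate 2, where 2.10% of all genes were called higher. It was 1.122 with 3 called without KI replicate 3, where 3.90% of all genes were called higher. The list summed to 22.6 to 74.5 CPM in KI and 22.6 to 44.8 CPM in WT, highest in KI replicate 2. *CD3E* was called in 2 of 6 left-out fits, and neither T cell gene was called without KI replicate 2 or without WT replicate 3. *UCHL1*, *USP39* and *STAMBP* were also highest in KI replicate 2, as was *USP14*, which was not called. *UCHL1* was next highest in KI replicate 3, at 37.9 CPM, where the leukocyte sum was lowest of the KI pigs, at 22.6 CPM. None of 6 adipocyte genes tested was called, and they summed to 152 to 281 CPM in KI and 125 to 395 CPM in WT. Their median log2 fold change was -0.96, with 5 of 6 negative, and it was -0.05 without WT replicate 2. Leaving out WT replicate 1 gave 2 adipocyte genes called lower, leaving out KI replicate 2 gave 1 lower, and leaving out WT replicate 3 gave 1 higher. The shares of all genes called in those directions were 3.69%, 2.82% and 5.41%. Of 6 endothelial genes, *TEK* was called higher (1.20), again beside 3.84% of all genes. Of 10 heat shock and chaperone genes, *ZFAND2A* (2.27) and *BAG3* (1.15) were called higher, *BAG3* in 2 of 6 left-out fits. Without KI replicate 3, 4 of the 10 were called higher, beside 3.90% of all genes. Only 1 was called higher without KI replicate 1, KI replicate 2, WT replicate 1 or WT replicate 2, beside 2.1% to 4.2% of all genes. Satellite cell and proliferation genes had no call with all pigs, and at most 1 in each direction with 1 pig left out. The part of these cells in the enzyme values was not tested.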

How the data were processed

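Muscle RNA was sequenced as paired-end mRNA libraries, and per the submitters' processing notes reads were trimmed (Trimmomatic 0.36), aligned to Sscrofa11.1 (HISAT2 2.0) and quantified (StringTie 1.3.3b); the program behind the count columns, strand use and annotation release are not given in the sources used here. The authors deposited raw gene counts for 6 pigs, and these counts were used as deposited (0 sample columns were left unused). Ensembl identifiers were given symbols from a name table (14864 of 30476 matched), and coordinates came from RefSeq genes of the same assembly.

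Genes were filtered with filterByExpr, scaled by TMM and tested with edgeR 4.0.16 (limma 3.58.1, R 4.3.3) by the quasi-likelihood F test, two-sided, with genotype as the only term; the script was tested on simulated data. DESeq2 1.42.0, other scalings and filters, a replicate block and each pig left out were alternatives. Intervals and SEs cover these pigs only. The enzymes and the lists were chosen with earlier results of these data known. Named enzymes were every called one, then those of lowest p up to 20, a fixed set of well-known ones and the 2 UBE2 and 2 USP or UCHL genes of highest mean CPM, which is not corrected for length. *UBE2J1*, *UBE2NL*, *USP53*, *HERC5*, *PSMD14*, *DCN* and the chromosomal neighbours were named after values were seen.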

Additional observations from a re-analysis of the deposited data

How the results depend on the processing

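With library size as the only scaling, all genes tested rose by a median of 0.25 on the log2 scale, 4 enzymes were called higher and 2 lower, and the medians of all 75, of the UBE2 and of the USP and UCHL genes were each 0.28; 63 of the 75 were then positive, against 37. At an adjusted p under 0.05 edgeR called 0 of them. Median-of-ratios scaling, DESeq2, both other filters and no limit on fold change each gave 2 higher and 4 lower. With 1 pig left out, 4 to 7 were called (5.33% to 9.33%, beside 4.92% to 11.12% of all genes in those fits), 1 to 4 of them higher (4 without KI replicate 1, 1 without KI replicate 2) and 2 to 4 lower (2 without WT replicate 2). The median of all 75 then ran from -0.062 (without WT replicate 1) to 0.12 and that of the UBE2 genes from -0.074 (without WT replicate 1) to 0.17, both highest without WT replicate 3, and that of the USP and UCHL genes from -0.07 to 0.04.

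The replicate numbers share no stated litter or day. Deviations of same-numbered pigs correlated at 0.0038, 0.0943 and 0.283, and KI replicate 1 correlated best with WT replicate 2, so the numbers were not taken as a pairing. With a replicate block, 3 enzymes were called higher and 3 lower (8.0% in all, beside 8.31% of all genes), with *UBE2A* added (1.27) and *USP28* lost (-0.79), and medians of 0.005, 0.0015 and 0.027. *USP43*, with 13 to 67 counts per pig, rests on few reads.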
